A study of Saccharomyces cerevisiae with 227 samples.

Results

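The genes described here are 10 antioxidant genes of *Saccharomyces cerevisiae*, taken by their ORF names from the 5609 ORFs measured: TSA1 (YML028W), TSA2 (YDR453C), AHP1 (YLR109W), PRX1 (YBL064C), TRX2 (YGR209C), TRR1 (YDR353W), GPX2 (YBR244W), SRX1 (YKL086W), GSH1 (YJL101C) and GLR1 (YPL091W). All 10 were found, and 2 of their 2270 values were missing, both for TRR1. RNA from sparged batch fermentors was labelled with Cy3 and hybridized to two-color oligonucleotide arrays together with a Cy5-labelled reference RNA, on 227 arrays in 7 series. Most time points had 3 arrays.

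Re-aeration followed cells that had spent 6 generations in O2-free N2 and were then returned to air, with 33 arrays in galactose medium (SSG-TEA) and 33 arrays in a series labelled as glucose medium (SSD-TEA), each at 6.03 to 7.6 generations against 6 generations as the anaerobic control. Anaerobiosis followed aerobic cells moved to O2-free N2 for up to 6 generations, with 42 arrays in galactose and 41 in glucose. Its 0.38 generation point in glucose had 2 arrays. Antimycin A treatment in air (1 µM, an inhibitor of the respiratory chain at complex III) had 33 arrays over 3 generations in galactose. The labels call its 0-generation samples the control but list antimycin A in their medium too, and the methods state that the control was harvested before the drug was added. Anaerobiosis in the presence of antimycin A followed those 3 generations in air and had 30 arrays, with the 3-generation cells as control. Anaerobiosis of an msn2/4 mutant, in galactose, had 15 arrays over 2 generations with 4 later time points, the cells at 0 generations being its control as in the other series begun in air. The strain was JM43 (wild type) wherever the labels name it. The media were supplemented with ergosterol and Tween 80, a source of unsaturated fatty acid, since yeast makes neither sterol nor unsaturated fatty acids without oxygen. In the antimycin A experiments each time series was put together from a pair of fermentor runs sampled at alternating points, so neighbouring points come from different cultures.

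Peroxiredoxins and glutathione peroxidases reduce peroxides at reactive cysteines. Thioredoxin, recharged by thioredoxin reductase with NADPH, returns most of them to their active form, and sulfiredoxin rescues peroxiredoxins that have been over-oxidized. Glutathione forms the parallel system, built by the enzyme that GSH1 encodes and kept reduced by glutathione reductase. In yeast many of these genes are known targets of the redox-sensitive transcription factor Yap1 and of Skn7.

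Values are log ratios of sample over reference, read as log2 (the base is not stated), and a change is the mean of a time point minus the mean of its own control. The median of an array lay between −0.08 and 0.09. Pairs of replicate arrays correlated across genes with a median r of 0.81 to 0.95 by series and a lowest r of 0.46. Among all pairs of arrays within a series the lowest r was −0.53, with the dyes the same on all arrays. The direction was kept as the labels give it. CYC1, which needs oxygen, was higher by 5.56 and 5.11 at 6.4 generations of re-aeration in galactose and in the series labelled glucose, and DAN1, an anaerobic cell wall gene, was lower by 4.43 and 5.47 on the log2 scale. In both series CYC1 and DAN1 were called, while ANB1, another hypoxic gene, was not called at this point. HEM13 was also chosen for this check, and its values are not given here. MSN2 was at −4.85 ± 0.62 in the msn2/4 mutant, against 0.19 ± 0.17 in the wild type at 0 generations (SD, n = 3 arrays each). MSN4 differed less, at −1.72 ± 0.39 in the mutant, against −0.40 ± 0.26 in the wild type, each over its own reference.

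One set of levels goes against its label. On the 33 arrays labelled as glucose re-aeration, GAL1, GAL7, GAL10 and GAL2 had log ratios between 7.38 and 10.3, while the hexose transporter genes HXT2 and HXT4 and the glucose-induced repressor gene MIG2 lay between −7.16 and −3.30. The labels name a galactose reference for these arrays. Galactose induces the GAL genes and glucose represses them, so a glucose culture over a galactose reference would give log ratios below 0 for them. In the 6 other series the same 7 genes stayed between −2.06 and 2.71. An offset that is common to a series drops out of changes against its own control, so those changes are given, and the series is called the series labelled glucose throughout. Levels of the 10 genes are not compared between series.

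On the return of air, the peroxiredoxins TSA1, AHP1 and PRX1, thioredoxin TRX2, its reductase TRR1, the glutathione peroxidase GPX2, sulfiredoxin SRX1 and the glutathione synthesis gene GSH1 all rose, in galactose and in the series labelled glucose alike. TSA1 and GPX2 were already called at 0.03 generations after the return of air, and TSA1, AHP1, PRX1, TRX2, TRR1, GPX2 and GSH1 at 0.06 generations. TSA2 was not called in either series, and GLR1 was called only in the series labelled glucose. A call is an adjusted p of 0.01 or less in limma with Holm's method over all genes of a time point. In galactose 8 of 10 genes rose at 1 or more time points, where 16.1% of all genes tested did, and in the series labelled glucose 9 of 10 rose, where 12.9% of all genes did. No member was called lower in either series, where 12.5% and 9.06% of all genes were, and 2 members in each had an unadjusted p under 0.05 for a fall. At 0.03 generations 2 of 10 were called higher in each series, where 2.66% of all genes were in galactose and 2.29% in the series labelled glucose.

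**Figure D1:**
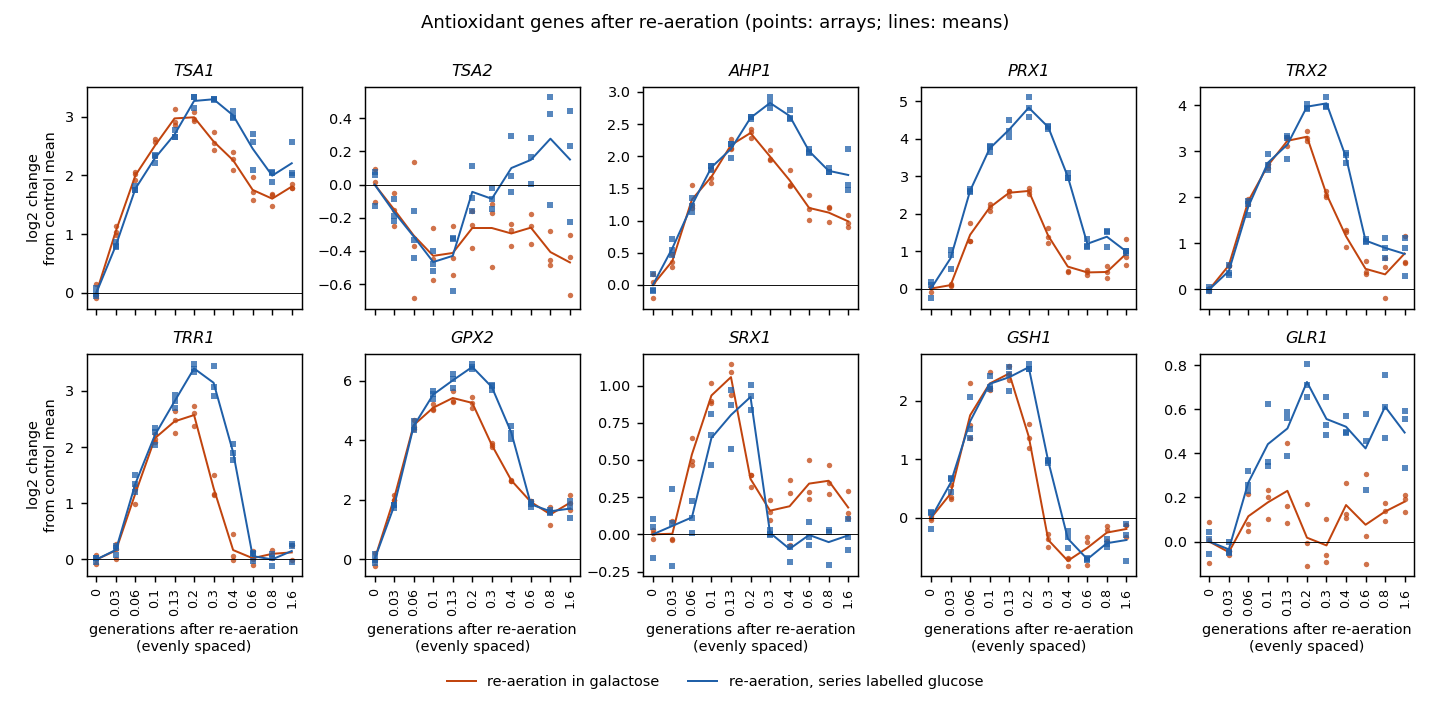
Log2 change of each gene from the mean of the anaerobic control at 6 generations, against generations after the return of air (points evenly spaced, vertical scales differ between panels). Small symbols are single arrays and lines are means, in orange for galactose and blue for the series labelled glucose. At 0.3 generations the blue lines of PRX1, TRX2, TRR1, GPX2 and GSH1 lie above the orange ones. TSA2 stayed between −0.47 and 0.28 in means.

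GPX2, a homologue of glutathione peroxidases that draws its electrons from thioredoxin, moved farthest. In galactose its arrays read 1.53, 1.18 and 1.13 at 0.13 generations after re-aeration, against −4.35, −3.93 and −4.15 in the anaerobic control. This is a change of 5.42 ± 0.14 (SE), or 42.9-fold (adjusted p = 7.96e-21, limma). With the label glucose its arrays read 0.71, 0.65 and 0.81 at 0.2 generations, against −5.78, −5.88 and −5.57 in the control. The arrays of re-aerated cells lay far above every control array in both series. The change in the series labelled glucose was 6.47 ± 0.13, or 88.5-fold (adjusted p = 2.20e-25, limma). By the size of its highest change GPX2 ranked 1 of 5582 genes in the series labelled glucose and 7 of 5584 in galactose. It remained called at all 10 time points of both series, and at 1.6 generations after re-aeration it was still 3.73-fold above control in galactose and 3.26-fold above it in the series labelled glucose.

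Among the peroxiredoxins, TSA1, the abundant cytosolic enzyme, and AHP1, which prefers alkyl hydroperoxides, rose quickly and stayed up. TSA1 arrays in galactose read 0.85, 0.82 and 0.96 at 0.2 generations, against −2.21, −1.97 and −2.15 in the control. This is a change of 2.99 ± 0.10, or 7.94-fold (adjusted p = 1.83e-17, limma). TSA1 in the series labelled glucose read 1.55, 1.53 and 1.53 at 0.3 generations, against −1.81, −1.78 and −1.68 in the control. The groups were wide apart, and the change was 3.30 ± 0.12, or 9.82-fold (adjusted p = 7.89e-18, limma). TSA1 was called at all 10 points of both series and ended 1.81 above control in galactose and 2.21 above it in the series labelled glucose on the log2 scale. AHP1 peaked at 2.36 ± 0.11 at 0.2 generations in galactose and at 2.83 ± 0.11 at 0.3 generations in the series labelled glucose. It was called from 0.06 generations to the last sample in both.

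PRX1, the mitochondrial peroxiredoxin, gave the largest gap between the 2 series. Its arrays in galactose read 1.12, 1.21 and 1.29 at 0.2 generations, against −1.35, −1.49 and −1.36 in the control, a change of 2.60 ± 0.14 or 6.08-fold (adjusted p = 7.95e-13, limma). In the series labelled glucose they read 2.40, 2.16 and 2.70 at 0.2 generations, against −2.24, −2.30 and −2.67 in the control. There the change was 4.83 ± 0.14, or 28.4-fold (adjusted p = 6.01e-21, limma), which ranked 14 of 5582 genes. The arrays did not overlap in either series. After its peak PRX1 in galactose was at 0.58, 0.43 and 0.44 above control at 0.4, 0.6 and 0.8 generations, none of them called, and was called again at 1.6 generations (0.93). TSA2, the close paralog of TSA1, had no rise: its lowest changes were −0.47 ± 0.14 at 1.6 generations in galactose and −0.47 ± 0.15 at 0.1 generations in the series labelled glucose, neither called. Whether probes of close paralogs (TSA1 and TSA2, TRX1 and TRX2, GRX1 and GRX2) cross-hybridize was not tested.

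TRX2, a cytosolic thioredoxin, and TRR1, the cytosolic thioredoxin reductase, rose along a similar course, and of the 2 only TRR1 came back to the control level. TRX2 arrays in galactose read 1.46, 1.23 and 1.30 at 0.2 generations, against −2.02, −1.98 and −1.95 in the control, a change of 3.31 ± 0.15 or 9.94-fold (adjusted p = 2.32e-14, limma). TRX2 in the series labelled glucose read 1.44, 1.63 and 1.42 at 0.3 generations, against −2.48, −2.56 and −2.58 in the control, a change of 4.04 ± 0.15 or 16.4-fold (adjusted p = 6.66e-18, limma). No array of the control came near those of re-aerated cells. TRX2 was called up to 0.4 generations in galactose and up to 0.8 generations in the series labelled glucose. In the last sample it was still 0.78 and 0.77 above control in the same order, neither called. TRR1 peaked at 2.57 ± 0.13 in galactose and 3.40 ± 0.12 in the series labelled glucose, both at 0.2 generations, 5.94-fold and 10.5-fold. Its change was down to 0.17 at 0.4 generations in galactose, where the arrays overlapped those of the control. It was still called at 0.4 generations (1.91) in the series labelled glucose and was at 0.06 at 0.6 generations.

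SRX1, sulfiredoxin, had the smallest of the called rises in galactose and a short one. Its arrays there read 0.73, 0.53 and 0.68 at 0.13 generations, against −0.44, −0.38 and −0.40 in the control. The change was 1.06 ± 0.09, or 2.08-fold (adjusted p = 6.36e-08, limma), and only 0.1 and 0.13 generations were called. SRX1 in the series labelled glucose read 0.54, 0.37 and 0.47 at 0.2 generations, against −0.36, −0.41 and −0.62 in the control. The arrays were again apart, with a change of 0.92 ± 0.12, or 1.90-fold (adjusted p = 5.40e-05, limma), called at 0.13 and 0.2 generations. Without replicate 3 the change at 0.2 generations was 0.84 and its adjusted p 0.107, and without replicate 1 the adjusted p was 0.0276 (limma).

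The glutathione genes differed from each other. GSH1 encodes the enzyme that joins glutamate and cysteine in the rate-limiting step of glutathione synthesis. Its arrays in galactose read 1.56, 1.47 and 1.69 at 0.13 generations, against −0.89, −0.93 and −0.86 in the control, a change of 2.47 ± 0.16 or 5.53-fold (adjusted p = 6.04e-11, limma). In the series labelled glucose they read 1.38, 1.31 and 1.31 at 0.2 generations, against −1.15, −1.15 and −1.42 in the control, a change of 2.57 ± 0.14 or 5.96-fold (adjusted p = 4.07e-13, limma). Both rises stood clear of the control arrays and were short. At 0.4 generations in galactose GSH1 read −1.71, −1.58 and −1.59, all below the control arrays. That change of −0.73 ± 0.16 did not pass the test (adjusted p = 0.426, limma). In the series labelled glucose the lowest change was −0.70 ± 0.14 at 0.6 generations (adjusted p = 0.180, limma), with its arrays below the control too. GLR1, glutathione reductase, peaked at 0.23 ± 0.10 in galactose, not called, and at 0.72 ± 0.10 in the series labelled glucose, or 1.65-fold (adjusted p = 0.000139, limma). GLR1 was called at 2 points of that series, 0.2 and 0.8 generations after re-aeration. Its arrays there lay above every control array at 9 of 10 points, and it ended 0.49 above control. The call at 0.2 generations was lost whichever replicate was left out, with adjusted p from 0.0425 to 0.219 (limma).

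The difference between the 2 media series was tested as a difference of changes, galactose minus the series labelled glucose, with the points matched by generations and not by minutes. An offset common to a series drops out of this and the other differences of changes, while normalization particular to a series does not. The SD of an array across genes ran from 0.32 to 0.57 in galactose and from 0.62 to 0.82 in the series labelled glucose. Of the 10 genes, 6 had a smaller change in galactose at 1 or more points, where 4.96% of all genes did, and 0 had a larger change, where 4.53% of all genes did. An unadjusted p under 0.05 for a larger change in galactose was reached by 1 gene. Up to 0.13 generations only PRX1 was called, at 0.06, 0.1 and 0.13 generations. At 0.3 generations the differences were −2.90 ± 0.20 for PRX1 (adjusted p = 1.07e-15), −1.97 ± 0.22 for TRX2 (adjusted p = 3.11e-08), −1.87 ± 0.17 for TRR1 (adjusted p = 1.47e-10), −1.95 ± 0.19 for GPX2 (adjusted p = 6.04e-10) and −1.34 ± 0.22 for GSH1 (adjusted p = 0.000759), all in limma. AHP1 differed most at 0.4 generations, by −1.001 ± 0.16 (adjusted p = 0.000345, limma). At 0.1 generations the difference for GPX2 was −0.44, with a 95% interval of −0.83 to −0.06 that leaves out 0, and it was not called. The 95% intervals at that point ran from −0.12 to 0.54 for TSA1, from −0.50 to 0.39 for TRX2 and from −0.42 to 0.45 for GSH1. For TSA1, not called, the difference at 0.3 generations was −0.72, with a 95% interval of −1.05 to −0.39. For SRX1 and TSA2 the intervals at 0.3 generations were −0.15 to 0.45 and −0.59 to 0.24. The call of GSH1 was lost whichever replicate was left out (adjusted p 0.0184 to 0.345), that of AHP1 without replicate 1 or 2 (0.215 and 0.290). With quantile normalization the AHP1 difference was −0.85 (adjusted p = 0.0112) and that of TRR1 −1.39 (adjusted p = 1), neither called.

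**Figure D2:**
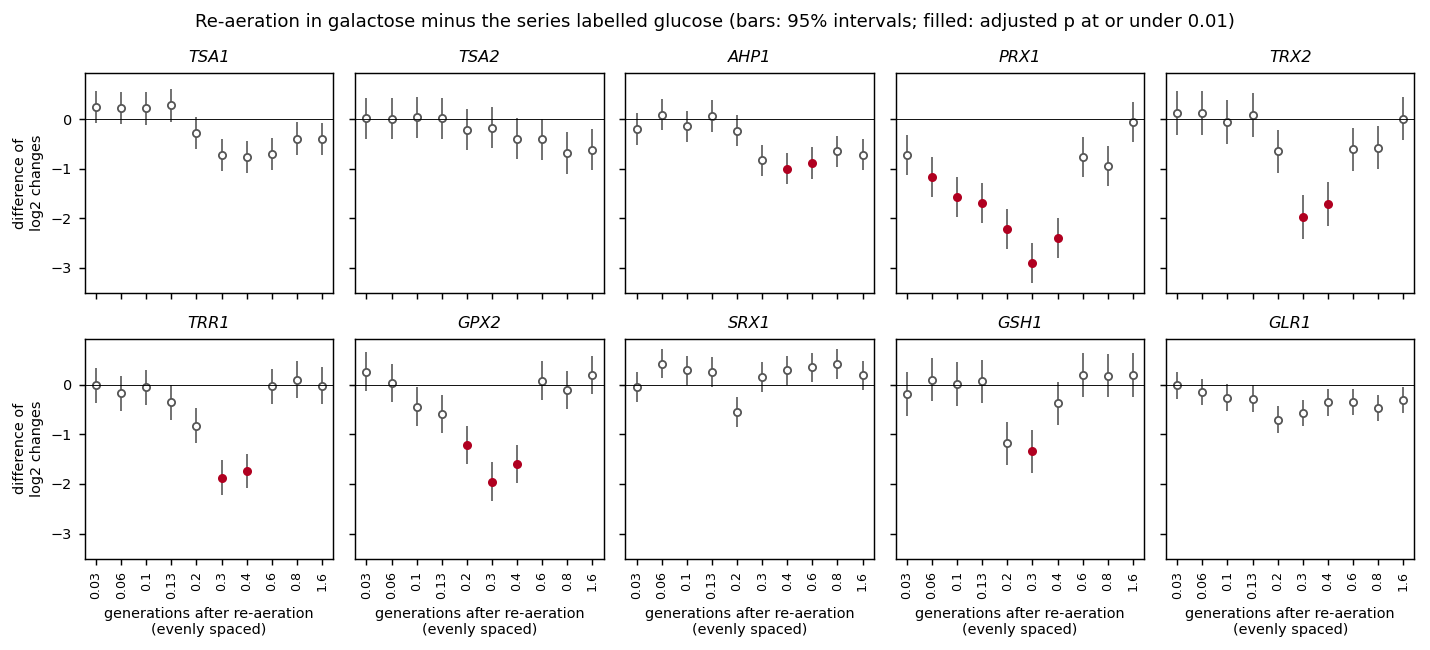
Difference of log2 changes, re-aeration in galactose minus the series labelled glucose, against generations after the return of air (evenly spaced). Circles are estimates, bars are 95% intervals, and filled circles had an adjusted p of 0.01 or less in limma. The filled circles for TRX2, TRR1 and GPX2 lie between 0.2 and 0.4 generations, and those for PRX1 span 0.06 to 0.4 generations.

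How alike the courses of re-aeration were was described by Pearson's r over the 20 changes of both series, in which all changes of a series share 1 control. Over the 45 pairs of the 10 genes r ran from −0.59 to 0.98, with a median of 0.65. TRX2 and TRR1 had the highest value (0.98), followed by GPX2 with TRR1 (0.97) and TSA1 with AHP1 (0.97). SRX1 and TSA2 had the lowest value. For each gene the 2 most alike of the 5553 genes with a value in every change were named. TSA1 and AHP1 had each other and YGP1 (YNL160W), a stress-induced cell wall protein, at r from 0.96 to 0.97. TRX2 had TRR1 (0.98) and CCP1, the mitochondrial cytochrome c peroxidase (0.97). TRR1 had HBN1 (0.98) and TRX2. GPX2 had TRR1 and YNL134C (0.96), and PRX1 had GRX2 (0.97) and RBK1 (0.95). GSH1 had YCT1, a cysteine transporter (0.97), and SHR5 (0.97), while SRX1 had TPO1, a polyamine exporter (0.96), and COY1 (0.94). TSA2 had CAF40 (0.96) and SDD2 (0.93), and GLR1 had MDG1 (0.92) and COX7, a subunit of cytochrome c oxidase (0.92).

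Of 31 other redox genes, 11 were called in galactose, 35.5% of them beside 27.4% of all genes, with 8 higher and 3 lower. In the series labelled glucose 11 were called as well, beside 21.1% of all genes, with 9 higher and 3 lower, GRX8 being in both counts. The median change of the 31 at 0.13 generations in galactose was 0.33, beside 2.46 for the 10 antioxidant genes and −0.06 for all genes. At 0.2 generations in the series labelled glucose it was 0.22, beside 2.93 and −0.08.

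Among the 8 glutaredoxins, GRX2 and GRX8 rose. GRX2, the main dithiol glutaredoxin, rose to 1.17 ± 0.20 at 0.13 generations in galactose, against −1.73 ± 0.12 in the control (SD, n = 3 each). Its changes were 2.90 (7.47-fold) there and 4.11 (17.3-fold) at 0.2 generations in the series labelled glucose, and it was called at all 10 points of both. GRX8 rose by 1.27 at 0.13 generations in galactose and by 0.92 at 0.2 generations in the series labelled glucose, where it fell by 0.77 at 0.6 generations. Of the 5 other genes of the thioredoxin system only MXR1, a methionine sulfoxide reductase, was called, with 2.56 at 0.13 generations in galactose and 2.23 at 0.2 generations in the series labelled glucose. TRX1, the paralog of TRX2, stayed uncalled in both.

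Of the 12 further genes of glutathione metabolism, ECM38, which breaks glutathione down (1.05 in galactose and 1.05 in the series labelled glucose), and the glutathione transferases GTO1 (1.89 and 1.47) and ECM4 (1.49 and 1.08) rose in both series. GTO3 was called higher in galactose (1.22 at 1.6 generations), and GTT2 (0.92) and YCF1, a vacuolar transporter of glutathione conjugates (0.84), in the series labelled glucose, and these differences between series were not tested. OPT1, the plasma membrane glutathione importer, fell by 2.48 at 0.6 generations in galactose and by 2.70 at 0.4 generations in the series labelled glucose. DUG3, part of the cytosolic glutathione-degrading complex, fell by 1.27 at 0.3 generations and by 1.48 at 0.4 generations in the same order, and GTT1 fell by 1.34 in galactose. YAP1, the redox-sensitive regulator, rose by 1.11 at 0.13 generations in galactose and by 1.37 at 0.2 generations in the series labelled glucose. The regulators SKN7 and YBP1 were not called. None of the 3 other peroxidases DOT5, GPX1 and HYR1 was called in either series. For these, 2 in galactose and 0 in the series labelled glucose had an unadjusted p under 0.05 for a rise, and 3 and 2 for a fall.

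In anaerobiosis the peroxiredoxins TSA1 and AHP1 and the peroxidase GPX2 fell in both media. TSA1 and GPX2 remained called to 6 generations from their first call on, as did AHP1 in glucose, while AHP1 in galactose was called at 1, 2, 3 and 6 generations and not at 4 and 5 generations (−0.63 and −0.60). In galactose 6 of the 10 genes were called, with 5 lower and 2 higher at some point, PRX1 being in both counts, beside 43.3% of all genes in either direction, 25.8% lower and 21.6% higher. In glucose 6 were called, all lower, beside 15.3% of all genes called lower. None rose there, beside 13.1% of all genes called higher, and 1 had an unadjusted p under 0.05 for a rise. GPX2 arrays in galactose read −0.78, −0.87 and −0.86 at 0.13 generations, against 0.97, 1.21 and 1.51 at 0 generations. This was a change of −2.07, and its lowest was −2.35 ± 0.15 at 1 generation, 5.10-fold lower (adjusted p = 8.93e-13, limma). At 6 generations it was −2.24. In glucose GPX2 read −1.26, −1.35 and −1.76 at 6 generations, against 1.32, 1.18 and 1.64 at 0 generations. The lowest change was −3.02 ± 0.14 at 4 generations, 8.12-fold lower (adjusted p = 1.60e-16, limma). The arrays of anaerobic cells lay below all aerobic ones from 0.08 generations on in both media.

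TSA1 fell more slowly. It was called from 0.25 generations in both media and was lowest at 6 generations. In galactose it then read −1.39, −1.21 and −1.30, against 0.77, 0.65 and 0.87 at 0 generations, a change of −2.06 ± 0.10 or 4.18-fold lower (adjusted p = 2.74e-16, limma). In glucose TSA1 read −1.75, −1.58 and −1.53, against 0.87, 0.94 and 1.01 at 0 generations, a change of −2.57 ± 0.12 or 5.92-fold lower (adjusted p = 4.58e-16, limma). No array of the anaerobic cells overlapped the aerobic ones. AHP1 was lowest at 2 generations in galactose (−1.40 ± 0.12) and at 3 generations in glucose (−1.76 ± 0.11). TSA2, TRR1 and GLR1 were not called in either medium, and for TSA2 the largest changes were upward, 0.49 in galactose and 0.34 in glucose. TRR1 was lowest at −0.33 in galactose and −0.44 in glucose. GLR1 was at −0.47 at 6 generations in both media (adjusted p = 0.236 in galactose and 0.0388 in glucose, limma).

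Early in anaerobiosis, at 0.13 generations, PRX1 and GSH1 moved in opposite directions in the 2 media. PRX1 arrays in galactose read 1.27, 1.28 and 1.02 at 0.13 generations, against −0.09, −0.05 and −0.30 at 0 generations, a change of 1.34 ± 0.08 or 2.53-fold (adjusted p = 4.32e-13, limma). In a fit to the 2 compared groups alone its adjusted p was 0.0175 (limma). At 6 generations the change of PRX1 in galactose was −0.70 ± 0.08 (adjusted p = 8.25e-06, limma). In glucose it was already down at 0.13 generations, with −0.52, −0.32 and −0.17 against 0.90, 0.57 and 0.94 at 0 generations. That change was −1.14 (adjusted p = 6.63e-07, limma), and at 6 generations it was −2.56 ± 0.12, or 5.88-fold lower. At 2 generations in between it was −0.19 and not called. GSH1 in galactose read 0.79, 0.90 and 0.64 at 0.13 generations, against 0.37, −0.06 and −0.06 at 0 generations, a change of 0.69 ± 0.12 (adjusted p = 0.00797, limma). In glucose GSH1 read −0.72, −0.61 and −0.61 at 0.13 generations, against 0.41, 0.43 and 0.30 at 0 generations, a change of −1.03 ± 0.12 (adjusted p = 3.92e-06, limma). GSH1 thus lay above its control arrays in galactose and below them in glucose. The rise of GSH1 in galactose was lost whichever replicate was left out (adjusted p from 0.0199 to 1) and with quantile normalization (0.43, adjusted p = 1). Its fall in glucose was lost without replicate 2 or 3 (adjusted p 0.0280 and 0.0227). SRX1 had a single call, −0.58 ± 0.10 at 0.19 generations in galactose (adjusted p = 0.00971), which was lost whichever replicate was left out (adjusted p from 0.132 to 1).

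**Figure D3:**
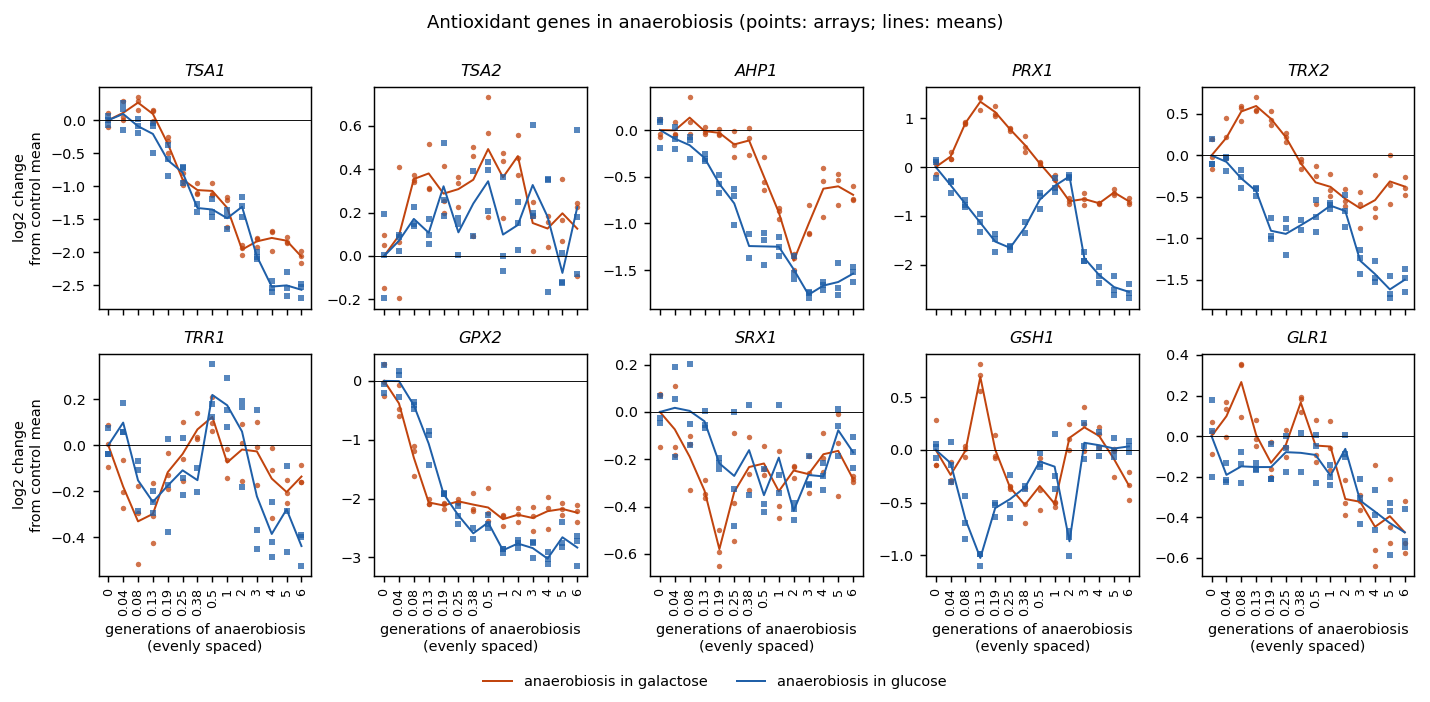
Log2 change of each gene from the mean of the aerobic control, against generations of anaerobiosis (points evenly spaced, vertical scales differ between panels). Small symbols are single arrays and lines are means, in orange for galactose and blue for glucose. GPX2 and TSA1 fell in both media. PRX1 rose to 1.34 at 0.13 generations in galactose while it fell in glucose, and at 6 generations in galactose it was at −0.70.

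Tested directly, galactose minus glucose, 4 of the 10 genes had a higher change in galactose at 1 or more points, where 16.3% of all genes did, and 0 had a lower one, where 18.2% of all genes did. For a lower change in galactose, 5 genes had an unadjusted p under 0.05. The differences were 2.65 for PRX1 at 0.19 generations (adjusted p = 3.85e-22), 1.72 for GSH1 at 0.13 generations (adjusted p = 5.80e-11), 1.35 for TRX2 at 0.19 generations (adjusted p = 4.19e-06) and 1.13 for AHP1 at 0.38 generations (adjusted p = 4.24e-05), all in limma. TRX2, which was called only in glucose within anaerobiosis, was lowest there at 5 generations (−1.62 ± 0.12, 3.07-fold lower). The AHP1 difference at 0.38 generations, where glucose had 2 arrays, was lost whichever replicate was left out (adjusted p 0.0109 to 0.0697), and that of TRX2 without replicate 3 (adjusted p = 0.0236).

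Antimycin A in air raised the peroxiredoxins TSA1, AHP1 and PRX1 and the thioredoxin TRX2, with the largest changes between 0.13 and 0.19 generations. These 4 of the 10 genes were called higher, where 11.4% of all genes were. None was called lower, where 12.3% of all genes were, and 3 had an unadjusted p under 0.05 for a fall. TRX2 arrays read 1.96, 1.65 and 1.78 at 0.19 generations of antimycin A, against 0.06, 0.22 and 0.14 at 0 generations, a change of 1.66 ± 0.19 or 3.16-fold (adjusted p = 8.41e-06, limma). AHP1 read 1.98, 1.72 and 2.02 at 0.19 generations, against 0.16, 0.44 and 0.51 at 0 generations, a change of 1.54 ± 0.16 or 2.91-fold (adjusted p = 1.06e-06, limma). PRX1 read 1.31, 1.36 and 1.39 at 0.13 generations, against −0.19, −0.14 and −0.19 at 0 generations, a change of 1.53 ± 0.12 or 2.88-fold (adjusted p = 6.17e-09, limma). All treated arrays of these genes were above the control arrays at those points. PRX1 was the earliest, called from 0.04 generations, and none of the 4 was called after 0.38 generations. TSA1 rose by 1.14 ± 0.13, or 2.20-fold, at 0.19 generations (adjusted p = 5.56e-06, limma). With quantile normalization its change was 0.55 (adjusted p = 1), and without replicate 2 it was 0.97 (adjusted p = 0.0167). The TRX2 call was lost without replicate 1 or 3 (adjusted p 0.0292 and 0.0240).

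GPX2, TRR1, GSH1 and SRX1, which rose in re-aeration, were not called in antimycin A in air. GPX2 had 0.59 ± 0.14 at 0.13 generations (adjusted p = 0.767, limma), and this turned to −0.19 with quantile normalization. TRR1 had 0.37 ± 0.17 at 0.38 generations and GSH1 0.72 ± 0.14 at 0.13 generations (adjusted p = 0.0600), neither called in limma. SRX1 had −0.66 ± 0.12 at 0.25 generations (adjusted p = 0.0206, limma), with its arrays below those of the control. Set against anaerobiosis in galactose as a difference of changes, 5 genes had a higher change with antimycin A, where 8.6% of all genes did. None had a lower one, where 7.52% of all genes did, and 2 had an unadjusted p under 0.05 in that direction. The largest differences were 2.65 for GPX2 at 0.13 generations (adjusted p = 1.13e-14) and 2.28 for TSA1 at 2 generations (adjusted p = 8.12e-17), with AHP1 at 1.69, PRX1 at 1.24 and TRX2 at 1.52, the last at 0.38 generations. The TRX2 difference was lost whichever replicate was left out (adjusted p 0.0229 to 0.202) and with quantile normalization (adjusted p = 0.0668).

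When air was replaced by N2 in the presence of antimycin A, TSA1, GPX2, AHP1 and GSH1 fell. These 4 of the 10 genes were called lower, where 8.24% of all genes were. None rose, where 10.4% of all genes did, and 3 had an unadjusted p under 0.05 for a rise. GPX2 read −1.42, −1.49 and −1.52 at 0.25 generations of anaerobiosis, against 0.88, 0.40 and 0.95 at 3 generations of antimycin A in air, a change of −2.23 ± 0.15 or 4.68-fold lower (adjusted p = 1.82e-10, limma). TSA1 read −0.64, −0.49 and −0.55 at 0.13 generations, against 1.04, 0.82 and 0.99 in that control, a change of −1.51, and was lowest at 1 generation (−2.01 ± 0.16, adjusted p = 2.60e-09, limma). Both genes were below every control array there. AHP1 was lowest at 0.25 generations (−1.02 ± 0.14, adjusted p = 0.000389, limma), a call lost when any of replicates 1 to 4 was left out (adjusted p 0.0218 to 0.0534). GSH1 was called at 0.08 generations alone (−0.97 ± 0.13, adjusted p = 0.000166, limma), a call lost without replicate 2 or 3 (adjusted p 0.285 and 0.0702). In fits to the 2 compared groups alone neither was called, with adjusted p of 0.397 for AHP1 and 1 for GSH1 (limma).

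**Figure D4:**
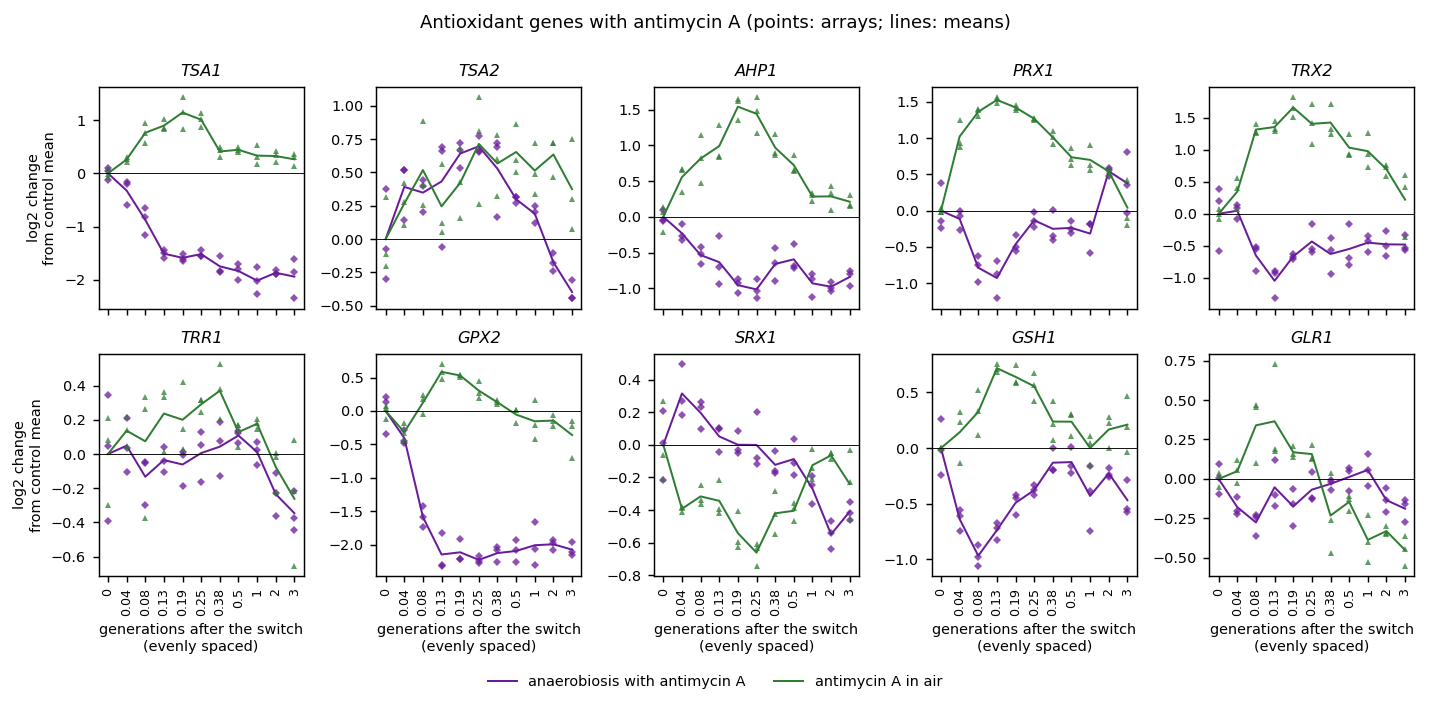
Log2 change of each gene from its control mean, against generations after the switch (points evenly spaced, vertical scales differ between panels). Purple shows anaerobiosis in the presence of antimycin A, with 3 generations of antimycin A in air as its zero point, and green shows antimycin A treatment in air, with 0 generations as its zero point. Small symbols are single arrays and lines are means. TSA1, AHP1, PRX1 and TRX2 lie above 0 in green up to 0.5 generations, and at 3 generations they are at 0.26, 0.21, 0.04 and 0.22. TSA1 and GPX2 fall to about −2 in purple.

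The early response of PRX1, TRX2, TSA1 and GSH1 to anaerobiosis was different in the presence of antimycin A. This comparison, the one between media and the 2 others against anaerobiosis in galactose share the 3 control arrays of that series. As a difference of changes, anaerobiosis with antimycin A minus without it, 4 genes had a lower change, where 14.5% of all genes did, and 1, PRX1, also had a higher change at a later point, where 17.5% of all genes did. At 0.13 generations PRX1 differed by −2.27 (adjusted p = 3.56e-13), TRX2 by −1.64 (adjusted p = 4.04e-05), TSA1 by −1.60 (adjusted p = 2.33e-08) and GSH1 by −1.43 (adjusted p = 1.51e-07), all in limma. PRX1 arrays in the presence of antimycin A read −1.34, −1.01 and −0.83 at 0.13 generations, against −0.27, −0.37 and 0.25 in their control. The change was −0.93 ± 0.18 and not called (adjusted p = 0.0789, limma). At 2 and 3 generations PRX1 was the gene with a higher change, by 1.24 and 1.03. For GPX2 no difference was called, and at 0.13 generations it was −0.08. The TRX2 difference was lost without replicate 1 (adjusted p = 0.0615) and the GSH1 difference without replicate 2 (adjusted p = 0.0392).

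In the msn2/4 mutant, named for the general stress transcription factors Msn2 and Msn4, 0 of the 10 genes were called in anaerobiosis, where 6.58% of all genes were. All 10 had an unadjusted p under 0.05 in limma at 1 or more of the 4 time points, as all 10 did in each other series. With the adjustment of Benjamini and Hochberg 4 were called, and the share of all genes called with it is not given here. PRX1 read 0.73, 0.05 and 0.54 at 0.08 generations, against −0.85, −0.61 and −0.73 at 0 generations. The arrays did not overlap, and the change was 1.17 ± 0.28. TSA1 read −0.24, −0.47 and −1.07 at 2 generations, against 1.02, 0.78 and 0.77 at 0 generations, a change of −1.45 ± 0.23 (adjusted p = 0.102, limma). GPX2 was at −1.04 ± 0.18 at 2 generations (adjusted p = 0.252, limma), below its control arrays at all 4 points. GLR1 was at −0.86 ± 0.15 at 2 generations (adjusted p = 0.199, limma).

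As a difference of changes, mutant minus wild type in galactose, 1 gene was called, PRX1 with 1.46 at 2 generations (adjusted p = 0.00147, limma). At 1 or more of the 4 time points 4.25% of all genes were called higher and 4.75% lower. None of the 10 was called lower, and 1 had an unadjusted p under 0.05 in that direction. Within the mutant the change of PRX1 at 2 generations was 0.76, not called. Its arrays read −0.62, 0.49 and 0.21 there, and −0.90, −0.85 and −0.79 in the wild type. Each set is over its own reference, so these levels are not compared. The call of the difference was lost without replicate 2 (1.23) or replicate 3 (1.47), each with an adjusted p of 1 (limma). At 0.08 generations the PRX1 difference was 0.27 and not called. For GPX2 the differences of 1.20 at 0.19 generations and 1.24 at 2 generations were not called.

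**Figure D5:**
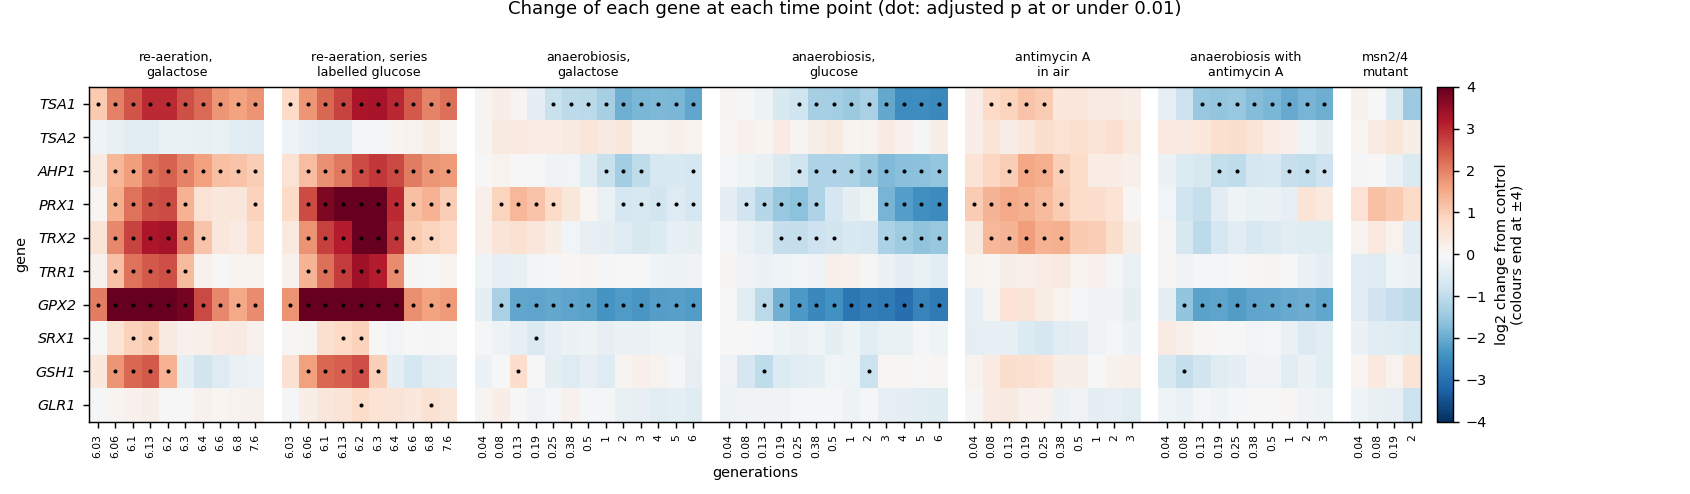
Log2 change of the 10 genes (rows) from the control of each series at every time point (columns, in generations), for the 7 series from left to right. Red is higher and blue lower than control, colours end at 4 in either direction, and dots mark an adjusted p of 0.01 or less in limma. Re-aeration is red for 8 rows in galactose, TSA1 and GPX2 are blue in anaerobiosis with and without antimycin A, and TSA2 has no dot in any series.

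Over all 70 changes of the 7 series, TSA1 and AHP1 had an r of 0.97, the highest of the 45 pairs, and 7 pairs were above 0.9. The lowest was −0.62, between TSA2 and SRX1. The changes within a series share a control, so these values only describe the courses. TSA2 was called in 0 of the 7 series, with changes from −0.47 to 0.71, and TRR1 was called in re-aeration only.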

How the data were processed

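The authors background-corrected and normalized the spot intensities, per the labels, and deposited 1 log2 ratio (base assumed, sample in Cy3 over reference in Cy5) per ORF and array. The normalization method is not given in the sources used here. Mean linear ratios of variable and steady genes over a series were closest to each other with base 2 in most series. In anaerobiosis in glucose and in antimycin A in air base e was closer. The paper describes its reference as pooled from an anaerobic culture and a re-aerated culture, not from all time points. This check therefore cannot settle the base. Deposited replicates are arrays that the labels number separately. The p-values measure the spread between them.

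From these values, limma 3.58.1 in R 4.3.3 fitted 1 mean per time point and series. Arrays were taken as independent, while the paper used ANOVAs with repeated measures. Each time point was tested against its control, and differences of changes as interaction terms, with at least 2 values per group and Holm's method at 0.01 over all genes of a time point. The fit was tested on simulated data. Alternatives changed the adjustment, the pooling of the spread, quantile normalization, centring, a 2-fold minimum, the control, a replicate block and the replicates used. Gene symbols come from RefSeq R64, which matched 5597 of 5609 ORFs. No sequences were used here.

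The 10 genes, the 5 lists of other redox genes and the rule for the 2 most alike genes were chosen with earlier results of these data known. All 10 genes are named in every series, and other redox genes where called in re-aeration.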

Additional observations from a re-analysis of the deposited data

Results flagged for a closer look

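The effects below differed between series by a test of the difference itself (limma interaction terms, Holm's method over all genes), each at the time point of its smallest p. They were not weighed further. For re-aeration in galactose minus the series labelled glucose, the differences of log2 changes were −1.001 for AHP1 at 6.4 generations, and at 6.3 generations −2.90 for PRX1, −1.97 for TRX2, −1.87 for TRR1, −1.95 for GPX2 and −1.34 for GSH1. Every one of these means a smaller change in galactose.

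For anaerobiosis of the msn2/4 mutant minus the wild type in galactose, PRX1 differed by 1.46 at 2 generations. For anaerobiosis with antimycin A minus without it, at 0.13 generations, the differences were −1.60 for TSA1, −2.27 for PRX1, −1.64 for TRX2 and −1.43 for GSH1. For anaerobiosis in galactose minus in glucose they were 1.13 for AHP1 at 0.38 generations, 2.65 for PRX1 and 1.35 for TRX2 at 0.19 generations and 1.72 for GSH1 at 0.13 generations. For antimycin A in air minus anaerobiosis in galactose they were 2.28 for TSA1, 1.69 for AHP1 and 1.24 for PRX1 at 2 generations, 1.52 for TRX2 at 0.38 generations and 2.65 for GPX2 at 0.13 generations. PRX1 appears in all 5 comparisons, of which 4 share the 3 control arrays of anaerobiosis in galactose. Groups of 3 arrays are too small for the search for single arrays that stand apart.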

How the results depend on the processing

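Of 1162 values of single genes under the alternatives, 1045 kept their direction and their side of the threshold, 71 kept their direction and lost the call, 44 gained one and 2 changed sign without being called. The 1045 include values that were not called and stayed so, and are thus not a count of calls that held. The 2 that changed sign were GPX2 in antimycin A in air at 0.13 generations with quantile normalization (−0.19) and TRR1 in anaerobiosis with antimycin A minus without it at 3 generations with the replicate block (0.0207). The counts for re-aeration stayed within 1.5 times the reported ones under every alternative run.

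With the adjustment of Benjamini and Hochberg, 10 genes were called in anaerobiosis in galactose, 8 in antimycin A in air, 8 in anaerobiosis with antimycin A and 4 in the msn2/4 mutant, and 7 differed between galactose and glucose, 7 with against without antimycin A, and 4 between mutant and wild type. In fits to the groups compared only, these numbers were 3, 2 and 2 for the wild-type series, and 2, 2 and 0 for the differences. Between mutant and wild type 2 differed with quantile normalization, 2 with centring on the median and 2 with the replicate block. The shares of all genes called under these alternatives are not given here. The counts therefore only show how the calls move with the setting and are not results about the 10 genes.

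Leaving out 1 replicate at a time gave 8 to 8 called genes for re-aeration in galactose, 7 to 8 for the series labelled glucose, 4 to 4 for anaerobiosis in galactose, 5 to 6 in glucose, 3 to 4 for antimycin A in air, 2 to 3 for anaerobiosis with antimycin A and 0 to 0 for the mutant. Genes that differed numbered 4 to 5 between the re-aeration series, 0 to 1 between mutant and wild type, 3 to 4 with against without antimycin A, 2 to 5 between galactose and glucose and 4 to 5 between antimycin A in air and anaerobiosis. The cause was not tested, and the shares of all genes with a replicate left out are not given here.

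The labels number the replicates of a time point, mostly 1 to 3, with other numbers up to 5 in the antimycin A series. Deviations of arrays with the same number correlated with a median r of 0.06 to 0.21 by series, with a lowest r under 0 in each. For different numbers the median r was −0.11 to −0.03. Arrays with the same number thus deviated together in part, and the labels do not state whether they share a culture. With the replicate block, 2 genes rather than 4 were called in anaerobiosis with antimycin A, the calls of AHP1 (adjusted p = 0.197) and GSH1 (adjusted p = 1) being lost in limma. The precision of each value is limited by 3 arrays per group.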
